A study of Mus musculus with 12 samples.

Results

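C1q and 5 further complement genes were followed in bulk RNA-seq of myeloid-derived suppressor cells (MDSCs), immature myeloid cells that restrain T cells. The 8 genes were taken by symbol from the 35303 symbols of the count table: C1qa, C1qb and C1qc, which encode the chains of C1q, and C3, Cfb, Cfp, C3ar1 and C5ar1. The C1q genes were selected on their fold changes, a large fall in both groups that carried nanoparticles (NPs), so their differences from plain MDSCs are described below without a test. Each group held 4 libraries: MDSC, MDSC-NP-Blk (cells with blank PLGA NPs on their surface) and CITED (cells with rapamycin-loaded PLGA NPs). PLGA is a degradable polyester, and rapamycin inhibits the kinase mTOR. All 3 groups came from wild-type mice and were kept for 24 h with IL-6 (40 ng/ml). The methods describe culture from the bone marrow of female C57BL/6 donors aged 6 to 10 weeks with GM-CSF and IL-6, and isolation of CD11b+Gr1+ cells, a mixture of monocytic and polymorphonuclear MDSCs. Particles were attached through azido groups on the cells, and whether the plain MDSC group also received the azido sugar is not stated. The titles call the replicates biological, without saying whether the groups shared donors, so p-values measure the spread between these libraries.

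Complement is a set of plasma and membrane proteins that mark targets for removal and recruit leukocytes. C1q recognizes immune complexes and dying cells and starts the classical pathway. The lectin pathway starts from ficolins and mannose-binding lectin, and the alternative pathway amplifies on surfaces through factor B and properdin. All of them meet at C3, whose fragments and those of C5 act on leukocytes through the receptors C3aR and C5aR1. Most complement proteins in plasma come from liver, whereas C1q comes mainly from macrophages and dendritic cells, and properdin from neutrophils and other leukocytes.

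The C1q genes lay side by side on chromosome 4 (GRCm39, GENCODE annotation), all on the minus strand, within 20153 bases. C1qb spanned chr4:136606009-136613511, C1qc chr4:136616466-136620376, and C1qa chr4:136623223-136626161, each with 3 exons. Because the 3 neighbouring genes were low together, the 250 bases before each start are shown in the direction of transcription, with matches to a Maf recognition core (TGCTGA) and to an ETS word (GAGGAA, or TTCCTC where the match is on the other strand) in capitals. These are words bound by factors of the Maf and ETS families. The windows are chr4:136626162-136626411 for C1qa, chr4:136613512-136613761 for C1qb, and chr4:136620377-136620626 for C1qc.
C1qa: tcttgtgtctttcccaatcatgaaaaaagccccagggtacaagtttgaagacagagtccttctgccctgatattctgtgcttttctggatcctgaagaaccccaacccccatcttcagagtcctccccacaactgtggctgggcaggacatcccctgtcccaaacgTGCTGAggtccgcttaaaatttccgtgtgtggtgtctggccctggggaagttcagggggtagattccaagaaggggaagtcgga
C1qb: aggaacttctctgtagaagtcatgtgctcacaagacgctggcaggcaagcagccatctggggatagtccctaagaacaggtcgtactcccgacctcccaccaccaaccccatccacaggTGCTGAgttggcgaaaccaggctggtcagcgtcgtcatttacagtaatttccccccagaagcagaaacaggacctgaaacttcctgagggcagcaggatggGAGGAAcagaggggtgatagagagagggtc
C1qc: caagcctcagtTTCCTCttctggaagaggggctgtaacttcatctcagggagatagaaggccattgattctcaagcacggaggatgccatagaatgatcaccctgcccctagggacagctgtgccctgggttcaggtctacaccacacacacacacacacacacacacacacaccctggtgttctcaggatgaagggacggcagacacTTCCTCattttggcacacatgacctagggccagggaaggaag
Counted from the first transcribed base as 0, the Maf core began at -84 and, past the bases shown, at 39 in C1qa, and at -131 in C1qb. The ETS word began at -30 in C1qb and at -239 and -42 in C1qc. Each word was searched on both strands, and neither overlapped the other. Over windows of 300 bases (250 before and 50 after the start) of 21770 genes, 17.9% held the Maf core and 27.5% the ETS word, so both words were common. The STAT word TTCNNNGAA, found in 8.81% of windows, occurred in C1qa at -21 and in Cfb at 22. C3 (at -163), C3ar1 (at -138) and C5ar1 (at -17) also held the Maf core, and Cfp held the ETS word at 6 and 22.

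Values below are normalized counts, that is, counts divided by the library size and the TMM factor of edgeR and put on the scale of the mean library. Libraries held between 20604809 and 37855478 counts, and the floor of 3 counts corresponded to 7.92e-06% to 1.46e-05%, a limit for counting error alone. All 8 genes passed the filter of at least 2 counts over the 12 libraries. Within MDSC-NP-Blk, replicates 1 and 4 were close to each other and so were replicates 2 and 3. The chi-square per gene was 5.69 and 5.91 for these pairs, and between 15.7 and 21.8 across them, compared with 4.72 to 9.6 within MDSC and CITED. The level of genes in a library, relative to their mean over libraries, also varied with transcript length. The Spearman correlation was 0.22 to 0.35 in MDSC and -0.34 to -0.19 in CITED. In MDSC-NP-Blk replicates 1 to 4 it was -0.42, -0.047, 0.093 and -0.24. A length correction was among the alternative fits. The TMM factors were 1.12 to 1.15 in MDSC and 0.921 to 0.947 in the particle groups. Mitochondrial transcripts took between 1.88% and 2.13% of counts in MDSC and between 1.4% and 1.68% in the particle groups. Since the tissue field of the labels names the CNS, brain markers were also read. Rbfox3, Syt1, Snap25, Gfap and Aqp4 and the microglial gene Sall1 had 0 counts in every library, whereas Itgam, which encodes CD11b, Ly6g and Ly6c2 were abundant.

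C1qa encodes the A chain of C1q. Its normalized counts were 514, 558, 594 and 576 in MDSC replicates 1 to 4, 131, 224, 227 and 126 in MDSC-NP-Blk, and 43.9, 29.3, 33.3 and 29.0 in CITED. The 3 groups did not overlap, and MDSC-NP-Blk lay between the others. The means were 560 ± 34.2, 177 ± 56.0 and 33.9 ± 6.95 (SD, n = 4). C1qa was thus 3.11-fold lower in MDSC-NP-Blk than in MDSC (log2 fold change -1.64, SE 0.142) and 16.6-fold lower in CITED (-4.05, SE 0.179), given as a description. In bulk RNA, fewer cells that express a gene and less of its RNA per cell cannot be told apart.

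C1qb encodes the B chain. MDSC replicates 1 to 4 had 1062, 1278, 1173 and 1155 normalized counts, MDSC-NP-Blk had 337, 391, 486 and 315, and CITED had 193, 111, 168 and 109. Here too the groups did not overlap, although CITED kept a larger part of the MDSC level than for the other chains. The means were 1167 ± 88.4, 382 ± 76.3 and 145 ± 41.8 (SD, n = 4). The gene was 3.04-fold lower in MDSC-NP-Blk (-1.61, SE 0.119) and 8.08-fold lower in CITED (-3.01, SE 0.134) than in MDSC.

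C1qc encodes the C chain. It had 845, 775, 845 and 847 normalized counts in MDSC, 136, 278, 271 and 165 in MDSC-NP-Blk, and 66.5, 58.7, 33.3 and 45.5 in CITED. The order of the groups was that of C1qa, again without overlap. With means of 828 ± 35.6, 213 ± 72.5 and 51.0 ± 14.6 (SD, n = 4), C1qc was 3.82-fold lower in MDSC-NP-Blk (-1.93, SE 0.145) and 16.4-fold lower in CITED (-4.04, SE 0.177) than in MDSC. As background to these contrasts, which chose the C1q genes, 21.2% of all 17676 genes tested lay lower without overlap in CITED against MDSC and 17.4% in MDSC-NP-Blk against MDSC.

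**Figure D1:**
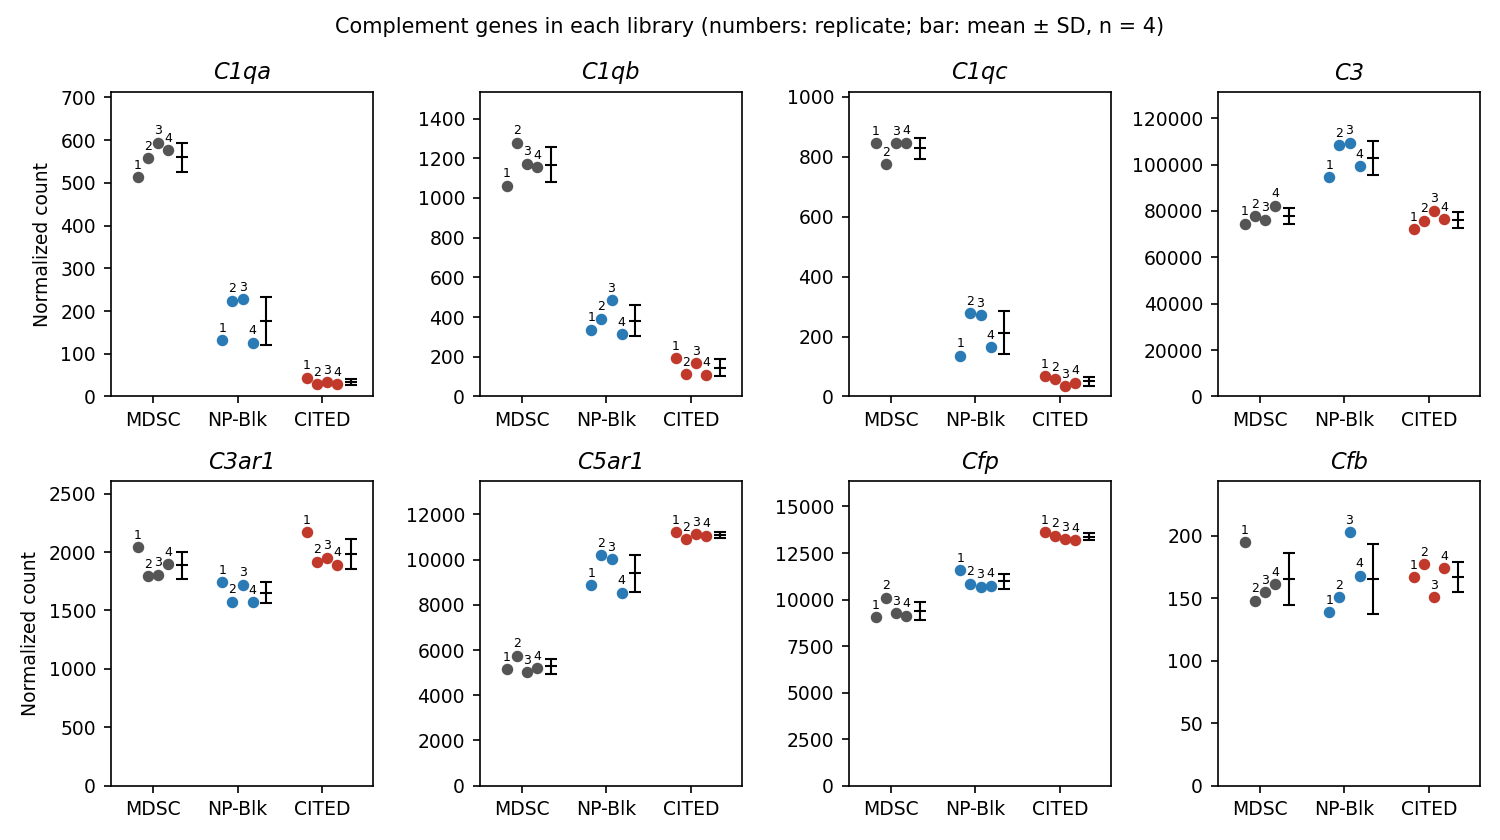
Normalized counts of the 8 complement genes (y axis, from 0, a scale for each gene) in MDSC, MDSC-NP-Blk (axis label NP-Blk) and CITED (x axis). Points are libraries with their replicate number, and black marks are the mean ± SD (n = 4). C1qa, C1qb and C1qc step down from MDSC through MDSC-NP-Blk to CITED, C5ar1 and Cfp step up, C3 is highest in MDSC-NP-Blk, and Cfb lies level.

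CITED against MDSC-NP-Blk, the contrast of loaded with blank particles, was tested. It shares both particle groups with the contrasts that chose the C1q genes. For these genes its p-values, calls and ranks are therefore not independent of that choice. A gene was called when its p-value from edgeR's quasi-likelihood test, with Benjamini-Hochberg adjustment over 17676 genes, was below 0.05 and its log2 fold change was at least 1 in either direction. Of the 8 genes, 3 were called, all lower in CITED, in a contrast in which 2.65% of all genes were called and 2.0% were called lower. The log2 fold change was -2.42 (SE 0.19, adjusted p = 4.1e-12) for C1qa, -1.41 (SE 0.139, adjusted p = 7e-10) for C1qb, and -2.1 (SE 0.189, adjusted p = 9.6e-11) for C1qc in this edgeR fit. These are 5.34-fold, 2.65-fold and 4.29-fold lower levels in CITED, lower in 4 of 4 libraries for each gene. Among the 10556 genes with a mean above 50 normalized counts, C1qa, C1qc and C1qb ranked 10, 13 and 53 from the largest fall.

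The spread of the C1q genes was near that of the median gene in MDSC and larger in the particle groups. The SD of log2 values within MDSC was 0.0892 for C1qa, 0.109 for C1qb and 0.0634 for C1qc, and the median gene had 0.0915. Within MDSC-NP-Blk it was 0.465, 0.277 and 0.513 against a median of 0.125, and only 2.18%, 11.1% and 1.6% of genes were as variable. The high libraries were replicates 2 and 3 and the low ones replicates 1 and 4 for all 3 genes, the same pairs as across the transcriptome. Within CITED the SD was 0.27, 0.413 and 0.431 against a median of 0.103. C1qa rested there on 24 to 35 counts in a library and C1qc on 30 to 53, so counting error is part of that spread. There the libraries did not share an order, since CITED replicate 3 was second highest for C1qb and lowest for C1qc.

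Each pair of MDSC-NP-Blk libraries was therefore also fitted alone. Against MDSC, with only replicates 1 and 4 of MDSC-NP-Blk, the log2 fold change was -2.13 for C1qa, -1.86 for C1qb and -2.47 for C1qc. With only replicates 2 and 3, it was -1.31, -1.42 and -1.59. The fall from MDSC-NP-Blk to CITED moved the other way, from -1.93, -1.17 and -1.58 with replicates 1 and 4 to -2.74, -1.59 and -2.45 with replicates 2 and 3. All 3 genes were called in this contrast with either pair, and these calls too are not independent of how the genes were chosen.

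Summed over the chains, MDSC held 2556 ± 90.4 normalized counts of C1q (SD, n = 4). MDSC-NP-Blk held 772 ± 196, or 30.2% of the MDSC mean, with libraries at 23.7% to 38.5%. CITED held 230 ± 53.2, or 9.01%, with libraries at 7.19% to 11.9%. To compare the chains with each other, counts were divided by the length of the canonical transcript and expressed as TPM, a scale on which values are compared between genes of a library and not between groups. In MDSC, C1qa stood at 49.4 ± 3.94 TPM, C1qb at 44.2 ± 3.01 and C1qc at 42.9 ± 2.82 (SD, n = 4). With these lengths the libraries of C1qb overlapped those of both other chains, while C1qc lay below C1qa in every library. Neither held with the longest annotated transcripts. The ratio of C1qc to C1qa in MDSC then ranged from 0.955 to 1.13, and C1qb lay lowest at 23.4 ± 1.6 TPM (SD, n = 4). The protein contains the 3 chains in equal number.

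With canonical lengths the proportions of the chains differed in CITED. C1qa, C1qb and C1qc stood there at 2.29 ± 0.403, 4.22 ± 1.12 and 2.02 ± 0.545 TPM (SD, n = 4). The ratio of C1qb to C1qa ranged from 0.848 to 0.984 in MDSC, from 0.749 to 1.1 in MDSC-NP-Blk, and from 1.62 to 2.16 in CITED. C1qb took 31.1% to 35.1% of summed C1q TPM in MDSC, 30.2% to 40.6% with blank particles and 42.8% to 57.7% in CITED, so that the CITED libraries lay above all others. As a value this ratio depends on the transcript lengths used, and with the longest annotated transcripts the mean for MDSC was 0.466 in place of 0.895. With those lengths the ratio still ranged higher in CITED (0.841 to 1.12) than in MDSC (0.441 to 0.512) and MDSC-NP-Blk (0.39 to 0.573). The mean shares of C1qa, C1qb and C1qc were then 40.3%, 18.8% and 41.0% in MDSC and 33.5%, 31.9% and 34.6% in CITED. Which group lay nearer to equal chains thus depended on the lengths used. The higher ratio in CITED follows from the changes of the chains in the contrasts that chose them, and was not tested.

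**Figure D2:**
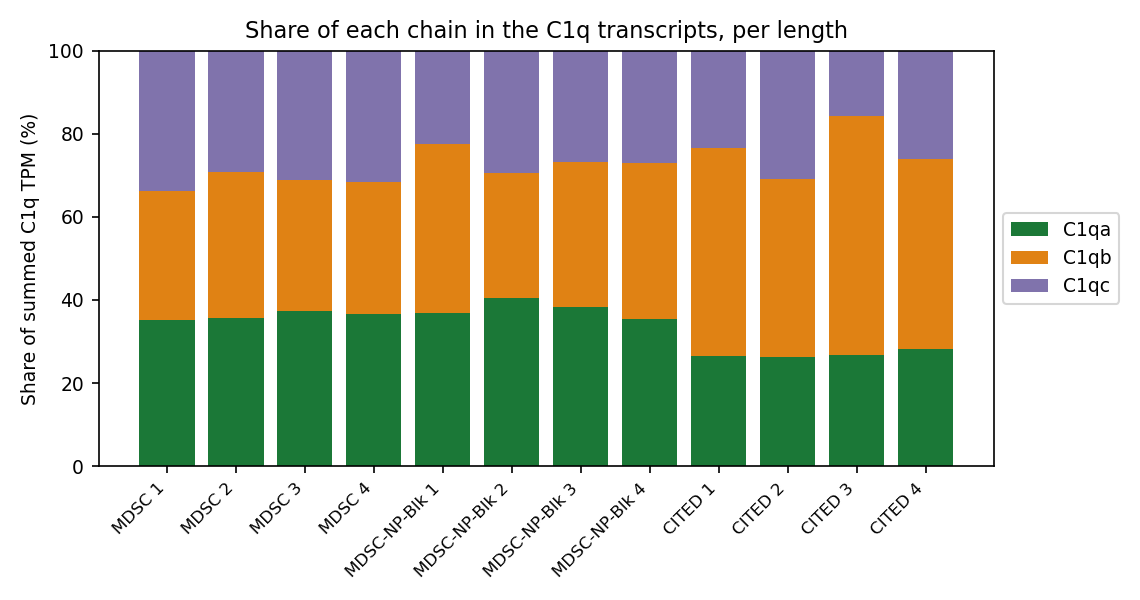
Share of C1qa, C1qb and C1qc in the summed C1q TPM of each library (y axis, 0 to 100%), with 1 bar for each of the 12 libraries (x axis). The share of C1qb is 31.1% to 35.1% in MDSC and 42.8% to 57.7% in CITED.

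Of the other protein-coding genes within 200 kb of the cluster, Zbtb40 alone had more than a few counts. This zinc finger gene averaged 283, 235 and 281 normalized counts in MDSC, MDSC-NP-Blk and CITED. Its log2 fold change was -0.01 (SE 0.106, adjusted p = 0.98) in CITED against MDSC and -0.27 (SE 0.107, adjusted p = 0.044) in MDSC-NP-Blk against MDSC by edgeR. Ephb2, a receptor tyrosine kinase gene, had 1 to 13 counts in a library, and Epha8, of the same family, had 0 in all. A long noncoding RNA, Gm69251, is annotated opposite C1qb and C1qc and was not analysed here. Whether counting used strand is not stated.

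The genes whose profile over the 12 libraries lay nearest to the mean C1q profile were Ear1, Mpo, Orm1, Brip1 and Ctsg. Likeness was the root mean square distance between centred log2 (normalized count + 1) profiles over 10600 genes with a mean above 50 in MDSC, and its median was 1.54. Ear1, an eosinophil-associated ribonuclease, lay at 0.399, with means of 832, 414 and 96.4 normalized counts in MDSC, MDSC-NP-Blk and CITED. Mpo, the myeloperoxidase of neutrophil primary granules, lay at 0.416 and averaged 27175, 8722 and 1279. The acute-phase gene Orm1 (0.441) averaged 110, 44.2 and 13.1, and the DNA helicase gene Brip1 (0.451) averaged 594, 226 and 85.6. Ctsg, the cathepsin G of the same granules as Mpo, lay at 0.452 with 8898, 3448 and 1372. C1qa, C1qb and C1qc themselves lay at 0.184, 0.328 and 0.234, as members of that mean.

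C3 is the protein on which all pathways converge. It was by far the most abundant of the 8 genes in MDSC, at 1444 ± 78.0 TPM (SD, n = 4), above Cfp at 548 ± 19.6, C5ar1 at 199 ± 7.41, the C1q chains, C3ar1 at 36.1 ± 2.34 and Cfb at 4.72 ± 0.6. In this order, which uses canonical lengths, the libraries of neighbours overlapped for C1qa and C1qb, for C1qb and C1qc, and for C1qc and C3ar1. C3 had 74481, 77840, 76269 and 82274 normalized counts in MDSC, 94580, 108403, 109413 and 99218 in MDSC-NP-Blk, and 72144, 75757, 80123 and 76416 in CITED. All MDSC-NP-Blk libraries lay above all others, whereas MDSC and CITED overlapped. C3 rose 1.32-fold in MDSC-NP-Blk against MDSC (log2 0.41, SE 0.0456, adjusted p = 4.4e-09) by edgeR. In CITED it was 1.35-fold lower than in MDSC-NP-Blk (-0.44, SE 0.0456, adjusted p = 2.7e-09). Against MDSC, CITED differed by -0.03 (95% interval -0.12 to 0.06, adjusted p = 0.63 by edgeR), a difference that passed the threshold with other scalings, at -0.30 with library totals and 0.12 with a length correction. Its 41 exons span chr17:57510964-57535155 on the minus strand.

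Cfb and Cfp encode the proteins that make and stabilize the alternative pathway convertase. Cfb, the zymogen factor B (chr17:35074852-35081559), had 195, 148, 155 and 161 normalized counts in MDSC, 139, 151, 203 and 168 in MDSC-NP-Blk, and 167, 177, 151 and 174 in CITED. The groups overlapped throughout. Its log2 fold change was 0.02 in CITED against MDSC (95% interval -0.26 to 0.3, adjusted p = 0.95) and 0.00 in MDSC-NP-Blk against MDSC (-0.27 to 0.28, adjusted p = 1.0) by edgeR. Cfb shares 66.0% of its 31-base words with the readthrough gene Gm20547, which had 0 to 9 counts in a library, and it overlaps Nelfe on the other strand.

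Cfp encodes properdin (chrX:20791688-20797794). Its normalized counts were 9063, 10106, 9260 and 9129 in MDSC, 11578, 10856, 10698 and 10747 in MDSC-NP-Blk, and 13630, 13435, 13244 and 13199 in CITED. The groups stepped upward without overlap. Cfp rose 1.42-fold in CITED against MDSC (0.51, SE 0.0463, adjusted p = 1.8e-11) and 1.22-fold in CITED against MDSC-NP-Blk (0.29, SE 0.0462, adjusted p = 1e-05) by edgeR. In MDSC-NP-Blk against MDSC it rose 1.17-fold (0.22, SE 0.0462, adjusted p = 0.00015 by edgeR), a difference that turned to -0.038 with library totals in place of TMM factors and no longer passed the threshold with a length correction (0.05, adjusted p = 0.33).

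C5ar1 encodes the main receptor of C5a, a strong attractant of neutrophils and monocytes (chr7:15980668-15993465). It had 5162, 5747, 5019 and 5195 normalized counts in MDSC, 8860, 10187, 10024 and 8546 in MDSC-NP-Blk, and 11225, 10906, 11115 and 11067 in CITED. Every particle library exceeded every MDSC library, and the CITED libraries, which differed by less than those of the other groups, were the highest. C5ar1 rose 2.1-fold in CITED against MDSC (1.07, SE 0.0545, adjusted p = 6.6e-18 by edgeR) and was the only one of the 5 tested genes called there, where 9.99% of all genes were called and 3.28% called higher. With library totals in place of TMM factors it missed the fold threshold, at 0.80. In MDSC-NP-Blk it rose 1.78-fold (0.83, SE 0.0543, adjusted p = 1.1e-14), and CITED exceeded MDSC-NP-Blk by 1.18-fold (0.24, SE 0.0537, adjusted p = 0.0011) in the same edgeR fit.

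C3ar1 encodes the receptor of C3a (chr6:122823393-122833122). MDSC had 2044, 1796, 1806 and 1897 normalized counts, MDSC-NP-Blk had 1740, 1574, 1720 and 1572, and CITED had 2172, 1917, 1951 and 1892. MDSC-NP-Blk lay lowest, below both other groups without overlap. The gene was 1.14-fold lower in MDSC-NP-Blk than in MDSC (-0.19, SE 0.0623, adjusted p = 0.012 by edgeR), which did not pass without MDSC replicate 1 (-0.15, adjusted p = 0.076) or with a length correction (-0.11, adjusted p = 0.18). CITED exceeded MDSC-NP-Blk 1.2-fold (0.26, SE 0.0626, adjusted p = 0.0016 by edgeR) and differed from MDSC by 0.07 (95% interval -0.05 to 0.19, adjusted p = 0.37 by edgeR). Without TMM factors, the difference from MDSC was -0.20 in CITED.

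In MDSC-NP-Blk against MDSC, where 4.74% of all genes were called, 4 of the 5 tested genes passed the adjusted p of edgeR, beside 38.6% of all genes, and each changed by less than 2-fold. C3, C5ar1 and Cfp passed on the higher side, beside 19.9% of all genes, and C3ar1 on the lower side, beside 18.6%. In CITED against MDSC 2 of the 5 passed it, beside 44.5% of all genes, both on the higher side, beside 22.2%.

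In CITED against MDSC-NP-Blk 7 of the 8 passed it, beside 22.0% of all genes. The counts for this contrast include the C1q genes, whose values here are not independent of their choice. The C1q genes and C3 were lower, beside 11.4% of all genes, and C5ar1, Cfp and C3ar1 were higher, beside 10.5%. Libraries of the 2 groups did not overlap for 7 of the 8 genes in this contrast, beside 21.2% of all genes (10.8% lower and 10.4% higher). Leaving out the C1q genes, which these contrasts chose, they did not overlap for 2 of the other 5 in CITED against MDSC, beside 42.5%, and for 4 of the 5 in MDSC-NP-Blk against MDSC, beside 35.6% (18.1% higher). Cfb overlapped in all 3. Scaling by library totals shifted the median log2 fold change of genes above 50 normalized counts by -0.27 in CITED against MDSC and by -0.26 in MDSC-NP-Blk against MDSC, while C5ar1 and C3 in MDSC-NP-Blk stayed above MDSC on either scale.

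**Figure D3:**
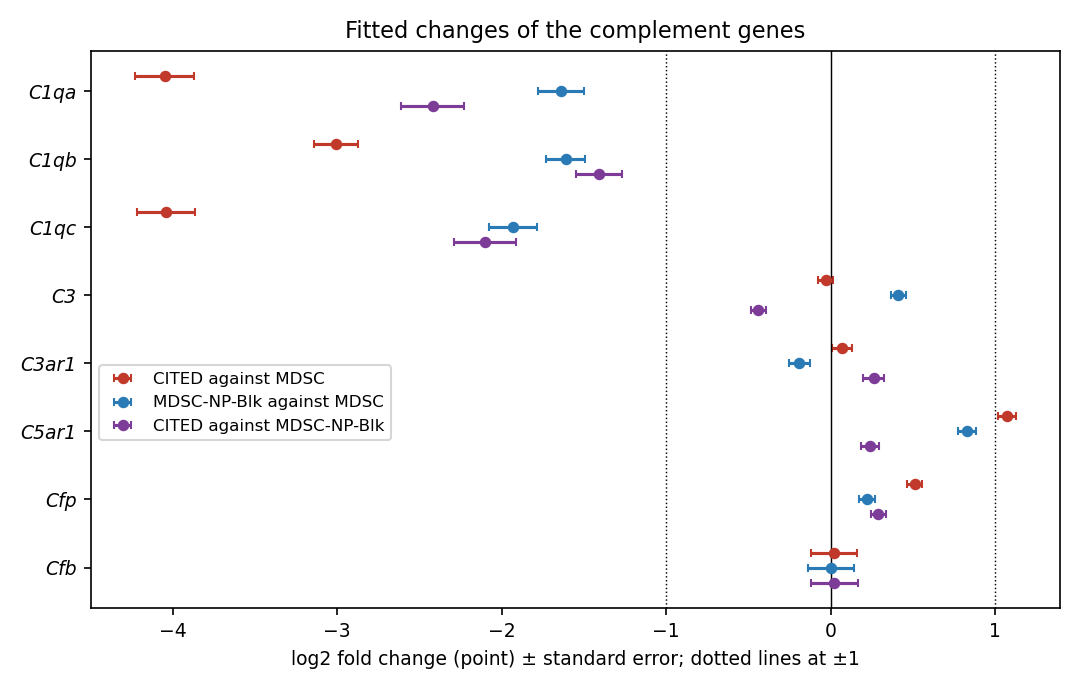
Fitted log2 fold change (x axis, point ± standard error) of the 8 complement genes (y axis) in 3 comparisons, marked by color, with dotted lines at a 2-fold change. C1qa and C1qc lie near -4 in CITED against MDSC and C1qb at -3.01, and of the others C5ar1 alone passes the line on the right, at 1.07.

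Across 54 other complement genes, 53 of them in the table, many components had no counts. Counts were 0 in every library for 13 of the 53, among them the lectins Mbl1 and Mbl2, the terminal components C6, C8b and C9, and the inhibitors Serping1 and Cfi. At least 2 counts were held by 39, and 16 averaged above 50 normalized counts. By edgeR, 5 of the 39 were called lower and 0 higher in CITED against MDSC, where 6.7% of all genes were called lower. The adjusted p was passed by 5 of the 39 on the higher side and 9 on the lower side, beside 22.2% of all genes in each direction, and 16 had an unadjusted p below 0.05. DESeq2 called 5 as well. The median log2 fold change of the 16 was -0.21, and that of all genes above 50 was 0.02.

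The genes called lower in CITED came from all 4 groups of the list. Fcnb, a ficolin that starts the lectin pathway, had 1946 to 2174 normalized counts in the MDSC libraries, 1428 to 1737 with blank particles and 337 to 423 in CITED. Its log2 fold change was -2.43 in CITED against MDSC (SE 0.0833, adjusted p = 2.2e-22) and -2.08 in CITED against MDSC-NP-Blk (SE 0.0834, adjusted p = 1.7e-19) in the edgeR fit. In MDSC-NP-Blk against MDSC it was -0.35 (SE 0.0747, adjusted p = 0.00023 by edgeR). Clu, which encodes the terminal pathway inhibitor clusterin, averaged 695 ± 18.0 and 706 ± 34.7 normalized counts in the MDSC and MDSC-NP-Blk groups, but 232 ± 43.2 in CITED (SD, n = 4). It fell by 1.57 against MDSC (SE 0.0991, adjusted p = 1.9e-15 by edgeR), and MDSC-NP-Blk differed from MDSC by 0.02 (adjusted p = 0.88).

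The terminal components C7 and C8g were low in all groups. C7 had 41 to 77 counts in the MDSC libraries, 9 to 67 with blank particles and 0 to 7 in CITED, and changed by -4.08 in CITED against MDSC (SE 0.588, adjusted p = 3.8e-07 by edgeR). C8g had 31 to 60, 25 to 49 and 7 to 20 counts and fell by 1.3 (SE 0.383, adjusted p = 0.0052 by edgeR). Lair1, an inhibitory receptor that binds collagen and C1q, averaged 1736, 1211 and 825 normalized counts and fell by 1.08 (SE 0.0709, adjusted p = 6.2e-15 by edgeR). Fcna, the second ficolin, had 9 to 15 counts in MDSC-NP-Blk and 17 to 59 elsewhere, and was called lower in MDSC-NP-Blk against MDSC (-1.25, SE 0.431, adjusted p = 0.019 by edgeR) and higher in CITED against MDSC-NP-Blk (1.28, SE 0.435, adjusted p = 0.03). Cd59b, the only other gene called in MDSC-NP-Blk against MDSC, had 1 to 7 counts in MDSC and 0 in all MDSC-NP-Blk libraries, too few for a fold change.

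In MDSC-NP-Blk against MDSC these 2 of the 39 were thus called lower by edgeR and 0 higher, where 2.86% of all genes were called lower. The adjusted p was passed by 4 on the higher side, beside 19.9% of all genes, and 8 on the lower side, beside 18.6%, and DESeq2 called 1. The median log2 fold change of the 16 more abundant genes was 0.03 here and in CITED against MDSC-NP-Blk. Without MDSC replicate 1 the count was 0, and without MDSC replicate 2 or without replicate 1, 2 or 4 of MDSC-NP-Blk it was 1. In CITED against MDSC-NP-Blk, Fcnb, C7, C8g and Clu were called lower and Fcna higher, where 0.651% of all genes were called higher. Without both MDSC-NP-Blk replicates 2 and 3, this count went from 5 to 3.

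**Figure D4:**
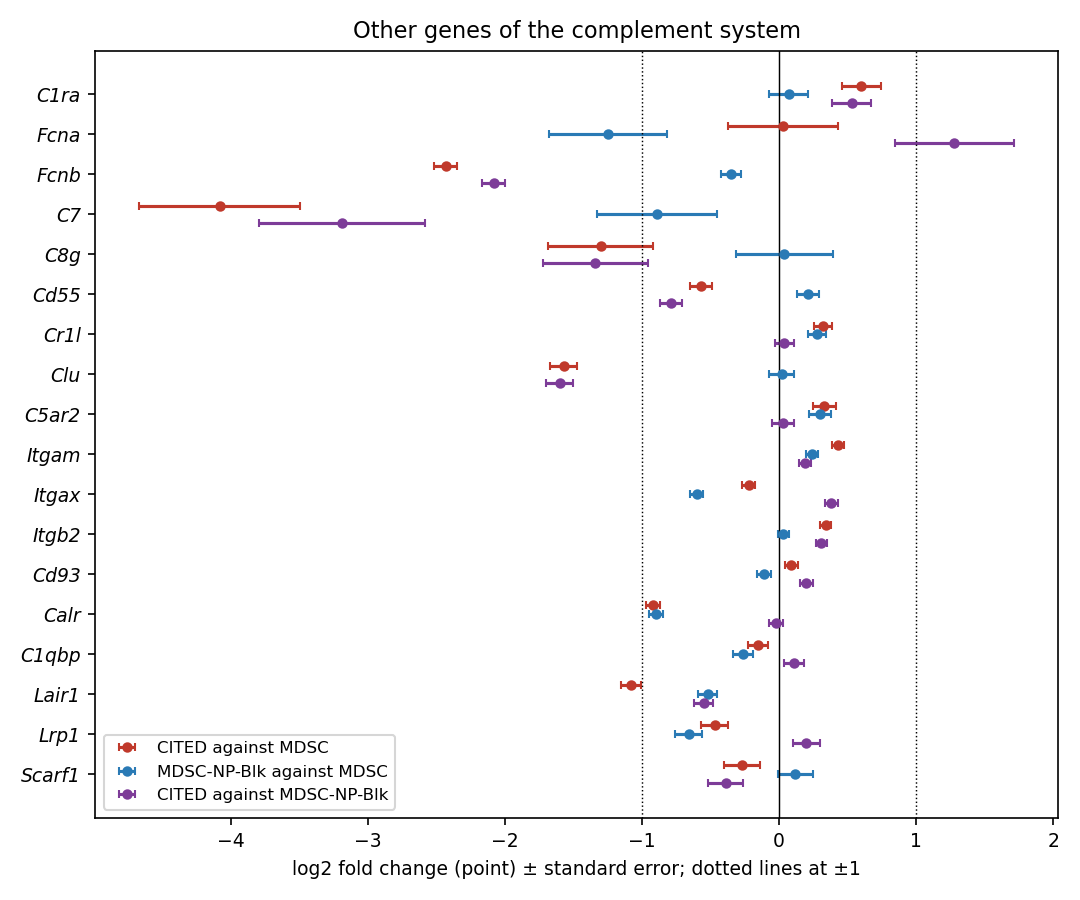
Fitted log2 fold change (x axis, point ± standard error) of 18 other complement genes (y axis) in 3 comparisons, marked by color, with dotted lines at a 2-fold change. Fcnb, C7, C8g, Clu and Lair1 lie past the left line in CITED against MDSC.

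Among receptors and C1q-binding proteins, changes under 2-fold prevailed. Itgam, Itgax and Itgb2 encode the integrin chains of complement receptors 3 and 4. Itgam averaged 51965, 61403 and 70031 normalized counts in MDSC, MDSC-NP-Blk and CITED, and rose by 0.43 in CITED (SE 0.0444, adjusted p = 3.7e-10) and by 0.24 in MDSC-NP-Blk (SE 0.0444, adjusted p = 3.2e-05) by edgeR. Itgax averaged 11032, 7278 and 9467, and was lower than MDSC in MDSC-NP-Blk (-0.6, SE 0.0477, adjusted p = 1.6e-12) and in CITED (-0.22, SE 0.0475, adjusted p = 0.00019). Calr, which encodes calreticulin, a partner of C1q in the uptake of dying cells, averaged 19501, 10442 and 10313. Against MDSC its log2 fold change was -0.9 in MDSC-NP-Blk (SE 0.0513, adjusted p = 4.2e-16) and -0.92 in CITED (SE 0.0514, adjusted p = 7.8e-17) by edgeR.

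The second C5a receptor gene, C5ar2, averaged 706, 870 and 887 normalized counts. It rose by 0.3 in MDSC-NP-Blk (SE 0.0828, adjusted p = 0.0033) and by 0.33 in CITED (SE 0.0831, adjusted p = 0.0011) against MDSC by edgeR. The decay regulator gene Cd55 averaged 769, 893 and 518, with log2 fold changes of 0.21 in MDSC-NP-Blk (adjusted p = 0.029) and -0.57 in CITED (adjusted p = 3.2e-07) against MDSC by edgeR. C1ra, a protease subunit that pairs with C1q in the C1 complex, averaged 131, 138 and 198 and rose by 0.6 in CITED (SE 0.142, adjusted p = 0.00066 by edgeR).

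Because C1q is a product of macrophages, 20 macrophage markers were read beside it. Their summed level moved opposite to C1q, from 42080 to 44229 normalized counts in MDSC to 55421 to 57210 with blank particles and 66793 to 68410 in CITED. Single markers went both ways. By edgeR, 8 of the 20 passed the adjusted p higher and 7 lower in CITED against MDSC, beside 22.2% of all genes in each direction. Of the 20, 2 were called higher (Ms4a7 and Cd68), beside 3.28% of all genes, and 3 lower (Mertk, Mrc1 and Cd5l), beside 6.7%. Mrc1, the mannose receptor gene, had means of 1809 ± 172, 379 ± 73.7 and 259 ± 51.5 (SD, n = 4) and had log2 fold changes of -2.81 in CITED (SE 0.116, adjusted p = 2.8e-20) and -2.24 in MDSC-NP-Blk (SE 0.111, adjusted p = 1.1e-17) against MDSC by edgeR. Csf1r, the receptor of the macrophage growth factor CSF1, averaged 11316, 21167 and 22570, 0.9 higher in MDSC-NP-Blk (adjusted p = 7.1e-18 by edgeR).

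In MDSC-NP-Blk against MDSC 7 macrophage markers passed the adjusted p of edgeR in each direction, beside 19.9% of all genes higher and 18.6% lower. Apoe and Cx3cr1 were called higher, beside 1.88% of all genes, and Mrc1 and Cd5l lower, beside 2.86%. In CITED against MDSC-NP-Blk, where all 3 C1q genes fell, 0 of the 20 were called by edgeR or DESeq2, beside 2.65% of all genes by edgeR. The adjusted p of edgeR was passed by 8, beside 22.0% of all genes, and 13 had an unadjusted p below 0.05. The part of macrophage content in the C1q values was not tested.

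**Figure D5:**
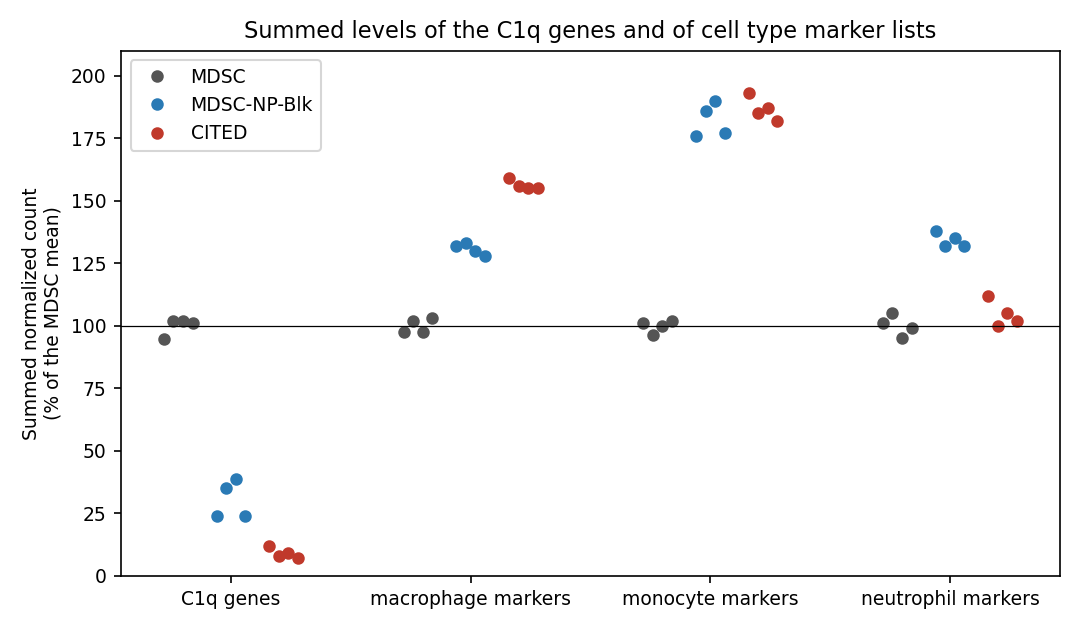
Summed normalized counts of the 3 C1q genes, the macrophage, the monocyte and the neutrophil markers (x axis), as a percent of the MDSC mean of each list (y axis, from 0), with 1 point for each library and colors for the groups. C1q lies at 23.7% to 38.5% with blank particles and 7.19% to 11.9% in CITED, while the macrophage and monocyte sums lie above 100% in both.

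Other cell types were read in the same way, with Itgam, Ly6g, Ly6c2, Pf4 and Siglech each held by more than 1 list. The calls given are those in CITED against MDSC, where 3.28% of all genes were called higher and 6.7% lower by edgeR. The sum of 8 monocyte markers was 76074 to 80664 normalized counts in the MDSC libraries, 138743 to 149698 with blank particles and 143739 to 152359 in CITED, and Cd14 was among those called higher and Ccr2 and F13a1 were called lower in CITED against MDSC by edgeR. The 14 neutrophil markers summed to 1007933 to 1115955, 1394722 to 1461362 and 1059995 to 1187129. In CITED against MDSC 4 of them were called higher (Mmp8, Mmp9, Retnlg and Csf3r) and 3 lower (Mpo, Elane and Camp). Of 10 dendritic cell markers, which summed to 12163 to 13285, 15318 to 17266 and 14818 to 15656, Clec9a was called higher and Siglech, at 0 in CITED, lower.

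For the remaining lists too, the calls given are those in CITED against MDSC, beside 3.28% of all genes called higher and 6.7% lower by edgeR. The 5 mast cell and basophil markers summed to 5021 to 5441 normalized counts in the MDSC libraries, 5472 to 6316 with blank particles and 3659 to 3778 in CITED, with Ms4a2 called lower in CITED against MDSC. The 8 lymphocyte markers, none averaging above 50 over the 12 libraries, summed to 119 to 181, 87.6 to 150 and 67.7 to 86.6, with Ms4a1 and Cd79a among those called lower. The 5 erythroid and megakaryocyte markers, led by Pf4, summed to 3595 to 4142, 5509 to 5799 and 5251 to 5762, with 0 called in CITED against MDSC by edgeR or DESeq2 and 2 at an unadjusted p below 0.05. The 6 microglia markers summed to 5396 to 5980, 5057 to 6307 and 4818 to 5120, and the 9 neuron, astrocyte and oligodendrocyte markers, carried by Mag, to 126 to 167, 92.4 to 135 and 133 to 190. Of the 4 sort antigens, which summed to 79993 to 83686, 95049 to 103896 and 93286 to 97260, the weakly expressed Ly6c1 was called lower in CITED. The part of these cell types in the complement values was not tested.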

How the data were processed

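Poly(A) RNA of 12 libraries was sequenced. Per the labels and methods, the authors quantified paired reads with Salmon 1.4.0 against GENCODE transcripts of GRCm39 and summed them per gene with tximport in R 4.3.2, and they deposited whole-number counts per gene symbol, not normalized. The GENCODE release is not given in the sources used here. The group came from the sample title and donor details from the methods. An entry with an empty symbol, holding 0 counts, was left out.

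In R 4.3.3, TMM factors and a negative binomial model with group as its only term were fitted to all 12 libraries with edgeR 4.0.16 (glmQLFit, glmQLFTest), for 17676 symbols with at least 2 counts in all. P-values were adjusted by Benjamini and Hochberg over all of them, and a call needed an adjusted p below 0.05 and a log2 fold change of at least 1 in size, the thresholds of the study, which used DESeq2. The common biological variation was 9.03%. Intervals of 95% are normal intervals from the standard error. The 8 members and the gene lists were chosen with earlier results of these data known. Named beyond the members were the complement genes and macrophage markers called in any comparison, other complement genes with a mean above 50, the 5 genes nearest in profile, and coding genes within 200 kb of C1q. Some genes that meet this rule are not reported here. TPM, transcript lengths, promoter windows and shared 31-base words used the canonical transcripts of GENCODE on GRCm39. Steps were tested on simulated data.

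Replicate numbers did not pair the libraries: same-numbered libraries correlated at -0.071 to 0.16, with 1 pair above 0.1 in CITED against MDSC-NP-Blk and 0 elsewhere. Alternatives were DESeq2 1.42.0, its size factors, other filters, the 8 libraries of a comparison, a replicate block, a length correction (loess, span 0.5), no fold threshold, and fits without 1 library. Fits with library totals, and without MDSC-NP-Blk replicates 2 and 3 or 1 and 4, were added after seeing the data. Figures used Python 3.11.15 and matplotlib 3.10.9.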

Additional observations from a re-analysis of the deposited data

Results flagged for a closer look

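C1qc in MDSC replicate 2 had 775 normalized counts, while the other MDSC libraries had 845, 845 and 847. The gap of that library to the nearest one was 0.961 of the range of the group, above the 95% critical value of Dixon for 4 libraries. It was the only one of 27 groups of 4 tested in this way, and chance alone gives about 1 in 20.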

How the results depend on the processing

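Of 416 values of the 8 genes under alternatives, 385 kept their direction and, where tested, their side of the adjusted p threshold; the C1q genes in the contrasts with MDSC have no test and were compared by size, and C5ar1 in CITED against MDSC kept its adjusted p but not its 2-fold change with library totals (0.80). Without a fold threshold 7862, 6815 and 3883 genes passed (CITED against MDSC first, then MDSC-NP-Blk against MDSC, then CITED against MDSC-NP-Blk). Leaving out 1 library gave 1631 to 1744, 722 to 892 and 417 to 474 calls. With the replicate block the calls were 1621, 766 and 441, and it changed no call of the 8 genes; as the numbers did not pair the libraries, it carries no further meaning. Leaving out 1 library moved the calls among the wider complement genes to 0 to 2 in MDSC-NP-Blk against MDSC and those among the macrophage markers to 0 to 1 in CITED against MDSC-NP-Blk.

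For the wider complement genes in MDSC-NP-Blk against MDSC, library totals gave 4 calls, and edgeR's filterByExpr, DESeq2 and the fit without MDSC-NP-Blk replicates 1 and 4 gave 1 each. In CITED against MDSC-NP-Blk, without replicates 2 and 3 of MDSC-NP-Blk, 3 were called. Without replicates 1 and 4, 1 macrophage marker was called there. The ratio of C1qb to C1qa in MDSC was 0.466 with the longest transcripts.

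Reversed directions concerned small differences, and the cause was not tested. C3 in CITED against MDSC was 0.12 with the length correction, C3ar1 was -0.20 and Cfp in MDSC-NP-Blk against MDSC -0.038 with library totals. Cfb, near 0 in every comparison, was -0.26 with library totals in both contrasts with MDSC. In MDSC-NP-Blk against MDSC it was -0.008 with RLE size factors and with DESeq2, -0.013 with the 8 libraries alone, and -0.116 without replicates 2 and 3. In CITED against MDSC-NP-Blk it was -0.071 without replicates 1 and 4. Leaving out 1 library gave -0.028 to 0.113, -0.113 to 0.097 and -0.052 to 0.131 in the order above. Depth limited C7, C8g, Fcna and Cd59b, which had few counts.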
